A study of Mus musculus with 3 samples.

Results

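The 8 genes Crem, Pde4a, Pde4b, Pde4d, Pde3b, Rgs1, Rgs2 and Ppp1r15a, which act in cyclic AMP (cAMP) feedback or answer to it, were followed by cell type in 3 single-cell libraries of mouse tissue. They were chosen by symbol, and all 8 were found in each count matrix, among 31253 genes listed for skin and 32285 for the ganglia. Every group had received MC903 (calcipotriol, a vitamin D analogue that raises dermatitis-like inflammation). The control skin library came from mice given MC903, and the RHS skin library from mice given RHS in addition, a term that the labels do not expand. Both were made from cells taken out of digested skin with CD45 beads and captured on the BD Rhapsody microwell system. The ganglia library was made from nuclei of sympathetic ganglia, captured on the 10x Genomics platform and pooled from 30 mice. Its description names RHS and MC903, its preparation text names MC903 alone, and its title calls it skin. How many mice went into each skin library, and their strain, sex and age, are not given in the sources used here.

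Cyclic AMP is made by adenylyl cyclases when a Gs-coupled receptor, such as a beta-adrenergic, prostaglandin or adenosine receptor, is engaged, and it acts largely through protein kinase A and the transcription factor CREB. Brakes keep the signal short: phosphodiesterases of the PDE4 and PDE3 families break cAMP down, and short Crem products (ICER) repress CREB-driven transcription. RGS proteins speed the shut-off of G proteins, which for Rgs1 and Rgs2 are Gi and Gq rather than Gs. Ppp1r15a (GADD34) belongs to a neighbouring brake, since it guides a phosphatase to eIF2 alpha and so ends the translation block of the integrated stress response. In skin the pathway is best known through PDE4 inhibitors, which are used against atopic dermatitis.

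Promoter windows of the RefSeq table (GRCm38.p6, while the submitters' notes name GRCm39 for the counts) were found for 5 of the 8 genes: Pde4a, Pde4b, Pde4d, Ppp1r15a and Rgs2. Windows were not used here for Crem, Pde3b and Rgs1. The 10 windows, of 300 bases each, were searched on both strands for the palindromic cAMP response element TGACGTCA and for its shorter form, TGACG or, on the other strand, CGTCA. The full element lay in 1.79% of all 32851 windows of that table and the shorter form in 20.8%. Among the 5 genes, Ppp1r15a alone held the full element, at bases -12 to -5 from the start site, with a separate CGTCA at 8 to 12. The Rgs2 window held CGTCA at -185 to -181 and TGACG at -67 to -63. Of the 4 Pde4b windows 1 held CGTCA, at -34 to -30, and of the 3 Pde4a windows 1 held it at -50 to -46. The Pde4d window held neither form. The stretches below run 5′ to 3′ on the gene's strand from 250 bases before to 20 bases after the start site, with matches in capitals. Ppp1r15a is shown because it differed between the skin libraries, and Rgs2 and 1 Pde4b window as examples with only the shorter form. The Pde4a window with CGTCA also holds only that form and is not shown. A match describes letters, not a bound site.
Ppp1r15a, chr7:45526249-45526518 (-): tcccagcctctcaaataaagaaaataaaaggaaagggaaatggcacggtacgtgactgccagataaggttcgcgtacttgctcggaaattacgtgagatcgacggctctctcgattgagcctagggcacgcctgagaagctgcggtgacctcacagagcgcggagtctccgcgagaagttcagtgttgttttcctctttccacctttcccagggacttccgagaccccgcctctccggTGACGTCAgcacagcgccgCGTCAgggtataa
Rgs2, chr1:144004130-144004399 (-): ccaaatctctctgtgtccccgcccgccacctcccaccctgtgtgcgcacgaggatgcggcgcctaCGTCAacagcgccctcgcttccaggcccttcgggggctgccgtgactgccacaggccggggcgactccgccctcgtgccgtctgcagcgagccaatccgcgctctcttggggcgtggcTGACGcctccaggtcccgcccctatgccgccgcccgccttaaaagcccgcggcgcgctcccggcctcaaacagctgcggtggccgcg
Pde4b, chr4:102421305-102421574 (+): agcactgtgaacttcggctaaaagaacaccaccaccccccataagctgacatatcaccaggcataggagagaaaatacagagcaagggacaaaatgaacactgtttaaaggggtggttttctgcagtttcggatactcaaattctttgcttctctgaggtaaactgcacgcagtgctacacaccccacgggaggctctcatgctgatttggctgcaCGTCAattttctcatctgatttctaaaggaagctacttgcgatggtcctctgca

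After filtering, 12577 control and 12953 RHS skin cells remained, with medians of 3233 and 3101 UMIs (unique transcript counts), and they fell into 24 clusters that each held at least 50 cells of both libraries. The 8 genes were kept out of the clustering. Most clusters matched the CD45 selection: Ptprc, the gene of CD45, reached 1004 CPM (counts per 1000000 UMIs) in control Cd8a T cell-like cells. It was at or under 30.9 CPM in 8 clusters (keratinocyte-like, melanocyte-like, fibroblast-like, endothelial cell-like, mural cell-like, and a cluster led by Slc26a7 and Prlr), which are not blood cells. A cluster led by Prg2 and Ccr3 (66 and 97 cells, 644 and 620 median UMIs) best matched the eosinophil markers. It held Prg2 (40 control and 21 RHS counts), Ccr3 (30 and 35), Cd24a (35 and 35) and Alox15 (4 and 8). It was still left unnamed, because Epx and Ear1 were at 0 counts in it and Siglecf, Il5ra and Ear6 at 1 count in each library. Epx had 1 control and 0 RHS counts over all skin cells, so its absence says little. The Cd4 and Il5, the Cfd and Igha and the Slc26a7 and Prlr clusters also stayed unnamed. The skin libraries shared 5 cell barcodes. With 1 library per group, cells are not replicates: no test between groups was run. All intervals are 95%, cover counting error only and say nothing of the spread between mice. A gene is called higher or lower here where RHS over control was at least 1.5-fold away from 1, its interval left out 1, and it had at least 20 counts in both libraries together.

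Ppp1r15a was the one gene of the 8 whose level over the whole skin differed between the libraries by that rule. With each cluster compared only with itself and the 24 ratios combined, its RHS over control ratio was 0.641 (0.624 to 0.659), from 15010 control and 8866 RHS counts. By the same combined ratio, 5.39% of the 16244 genes measured were called lower and 1.96% higher. The other 7 genes lay much nearer to 1. Their combined ratios were 0.839 (0.795 to 0.886) for Pde4d, 0.917 (0.890 to 0.945) for Pde4b, 0.927 (0.909 to 0.946) for Crem, 0.962 for Pde3b, 0.993 for Rgs1, 1.01 for Rgs2 and 1.06 (0.940 to 1.20) for Pde4a. The intervals of Pde4d, Pde4b and Crem left out 1, those of the 4 others did not, and none of the 7 reached 1.5-fold.

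The ratio of Ppp1r15a was under 1 in 22 of 24 clusters and called lower in 15. In Cd163 macrophage-like cells its level was 419.7 CPM among control and 229 CPM among RHS cells (ratio 0.546, 0.511 to 0.583). In Ear2 macrophage-like cells it was 227 and 119.6 CPM (0.528, 0.490 to 0.568). Lymphocytes held less of it but showed the same direction: Cd8a T cell-like cells had 75.7 and 38.0 CPM (0.502, 0.388 to 0.650), the lowest ratio of the 24. Monocyte-like (345 and 179 CPM), basophil-like (437 and 241), Langerhans cell-like (211 and 119.5) and mast cell-like cells (578 and 377) were called lower too, as were endothelial cell-like (732 and 479) and Krt10 keratinocyte-like cells (259 and 167). Among the non-blood cells carried along with the bead-selected leukocytes, only endothelial cell-like, Krt10 keratinocyte-like and Krt16 keratinocyte-like cells were called lower. The interval held 1 in 5 clusters: the Slc26a7 and Prlr cluster (585 and 551 CPM, ratio 0.943), gamma-delta T cell-like (96.6 and 93.6 CPM, 0.969), regulatory T cell-like (65.7 and 49.7 CPM, 0.757), fibroblast-like (312 and 336 CPM, 1.07) and melanocyte-like cells (194 and 263 CPM, 1.35 from 155 and 35 counts). The other 4 clusters, among them neutrophil-like (749 and 505 CPM, 0.674) and mural cell-like cells (591 and 475 CPM, 0.804), had intervals under 1 without reaching 1.5-fold.

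**Figure D1:**
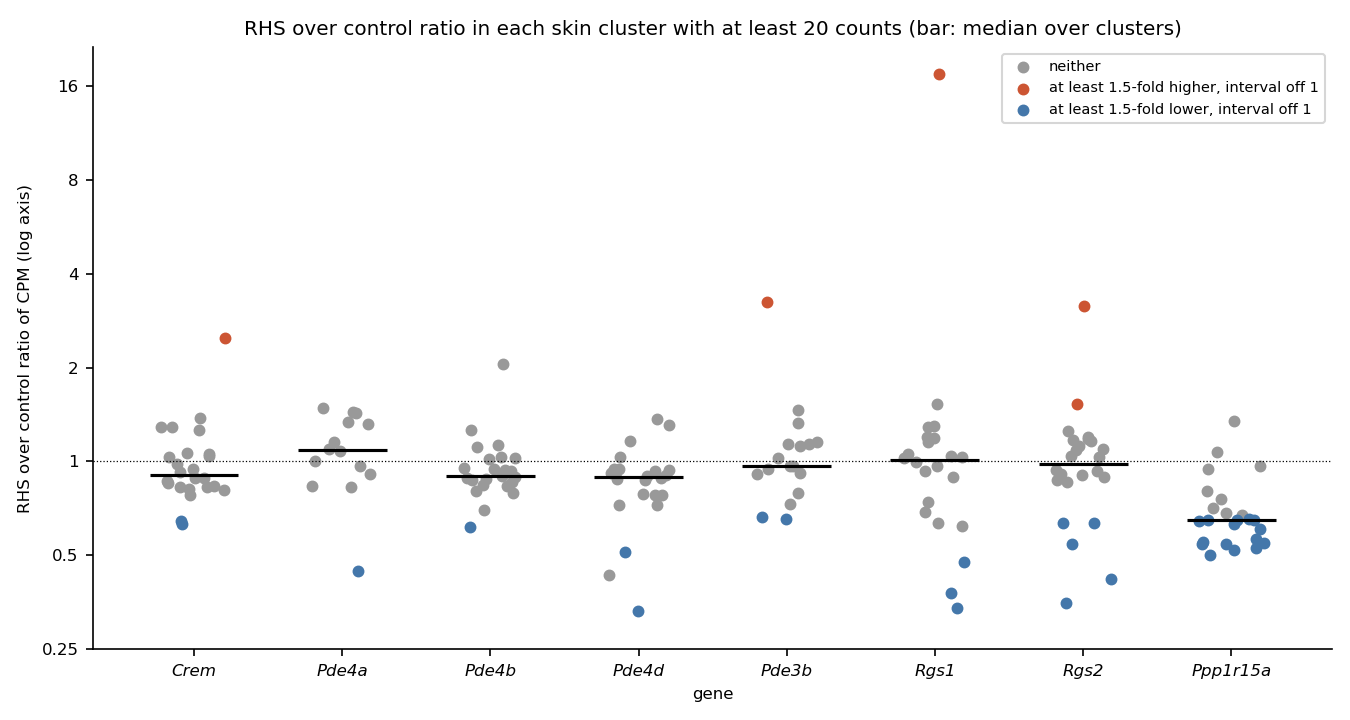
RHS over control ratio of CPM (vertical log axis) of each of the 8 genes (horizontal axis), 1 point per skin cluster with at least 20 counts; orange and blue points are at least 1.5-fold higher or lower with an interval off 1, and bars are medians over clusters. The Ppp1r15a points lie mostly under 1 with a median of 0.650, while the medians of the other 7 genes lie between 0.893 and 1.09.

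The number of cells with a Ppp1r15a UMI moved the same way. In Cd163 macrophage-like cells 76.2% of control and 59.8% of RHS cells had one, at medians of 5282 and 5070 UMIs per cell. In Cd8a T cell-like cells the shares were 16.4% and 7.91%, at medians of 2335 and 2040 UMIs. The RHS share was the lower one in 24 of 24 clusters as deposited, and in 20 of 24 after every cell had been thinned to 500 UMIs. At that depth the shares in Cd163 macrophage-like cells were 17.7% (15.1 to 20.6) and 10.7% (9.25 to 12.4). Median UMIs per cell as deposited were lower in the RHS library in each cluster. For the other 7 genes the RHS share was also often the lower one, as deposited and thinned. That held in 21 and 19 clusters for Pde4d, 18 and 17 for Pde4b, 19 and 15 for Crem and 17 and 14 for Rgs2. For Pde3b it held in 16 and 9, for Rgs1 in 15 and 9 and for Pde4a in 12 and 11. Ppp1r15a has no cell type here that should lack it, and its lowest thinned share was 1.76%, in RHS Cd8a T cell-like cells.

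Few genes were lower in as many clusters. Of 848 genes that could be measured in all 24 clusters, 10 were called lower in at least 15: Ppp1r15a itself, the ribosomal protein genes Rpl8, Rpl28, Rps14 and Rps15, the elongation factor gene Eef2, and Actn4, Crip1, Ctsd and Mt2. None of the 848 was called higher in 15 or more. The heat shock gene Hspa1a, measured in 23 clusters and so not among the 848, was called higher in 15. Over all 8 genes, 170 of the 192 gene and cluster pairs had enough counts, and 31 of them (18.2%) were called lower against 5.39% of the 182718 pairs of all genes. Ppp1r15a supplied 15 of those 31. The 5 pairs called higher were 2.94% of the 170, beside 3.64% of all pairs. The 31 lower pairs became 13 with every cell thinned to 500 UMIs and 19 without the keratinocyte, melanocyte, fibroblast, mural and endothelial clusters, and the 5 higher pairs became 2 in both cases. The share over all genes was not computed at these settings, so the 13, 19 and 2 cannot be read against a background.

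Other genes of the integrated stress response were split in direction. Of 13 on that list 6 had a combined ratio over 1, none was called, and the list's median log2 ratio was -0.05, beside -0.01 for all genes. Ppp1r15b, which encodes the constitutive partner of the same phosphatase, had a combined ratio of 1.01 and was over 1 in 11 clusters and under 1 in 13. Atf3, a stress-induced transcription factor, was higher in the RHS library: its combined ratio was 1.35 (1.31 to 1.38), over 1 in 20 of 23 clusters and called higher in 10. Atf4, the main transcription factor of the response, had a ratio of 1.08, and the ATF4 targets Trib3 and Chac1 had 0.753 (0.655 to 0.865) and 0.696 (0.577 to 0.839). Eif2ak4, a kinase that senses amino acid shortage, stood at 1.17.

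A list of 19 genes known to change when tissue is dissociated was read beside these values. On the combined ratio 2 of the 19 were called higher and 1 lower, against 1.96% and 5.39% of all genes, and the list's median log2 ratio was 0.15. The heat shock genes Hspa1a and Hspa1b were higher in the RHS library, at 1.91 (1.88 to 1.94) and 1.81 (1.78 to 1.84), and were called higher in 15 and 14 of 23 clusters. Fosb, an immediate early gene that is also a CREB target, was lower at 0.657 (0.642 to 0.671), under 1 in 23 of 24 clusters and called lower in 14. Hspa8, a constitutive heat shock gene, stood at 0.835. Fos, from the same family as Fosb, went the other way at 1.26 (1.23 to 1.28). The part of digestion, handling and library in the Ppp1r15a difference was not tested, and with 1 library per group it cannot be told apart from RHS.

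**Figure D2:**
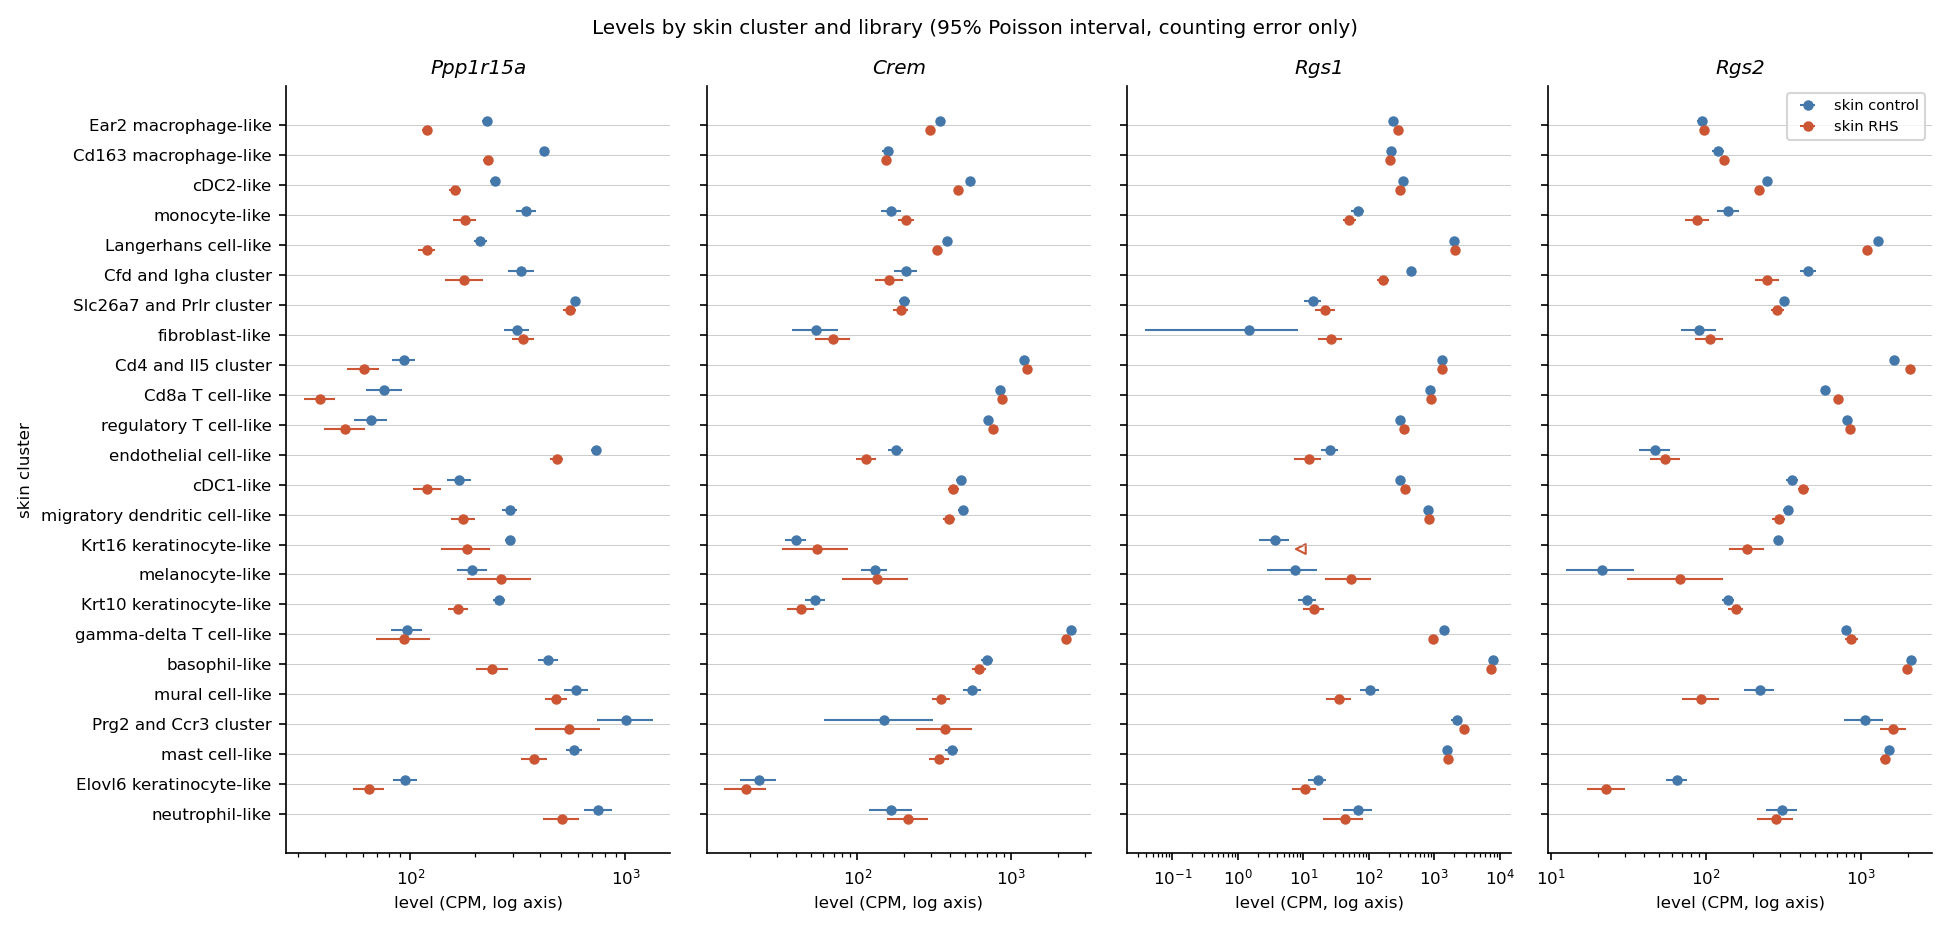
Levels in CPM (horizontal log axes) of Ppp1r15a, Crem, Rgs1 and Rgs2 in each skin cluster (vertical axis) of the control (blue) and RHS (orange) libraries, with 95% Poisson intervals; an open triangle marks a library with 0 counts, drawn at the level of 3 counts. Ppp1r15a shifts to the left in most clusters of the RHS library, while Crem, Rgs1 and Rgs2 differ far more between clusters than between libraries.

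Crem, whose ICER products feed back on CREB, had its highest levels in lymphocyte clusters. Its level was highest in gamma-delta T cell-like cells, at 2450.3 CPM (2372 to 2530.2) for control and 2270.1 (2143 to 2403) for RHS cells. The Cd4 and Il5 cluster followed with 1203 and 1274 CPM, then Cd8a T cell-like cells with 841 and 871, regulatory T cell-like cells with 708 and 756, and basophil-like cells with 696 and 615. The top of that order was the same in both libraries, but regulatory T cell-like and basophil-like cells did not differ beyond their intervals in the control. In gamma-delta T cell-like cells 89.8% of control and 86.1% of RHS cells had a Crem UMI, at medians of 1776 and 1592 UMIs. In Elovl6 keratinocyte-like cells, which had the lowest Crem level (22.8 and 18.9 CPM), the shares were 17.8% and 12.6% at 10245 and 9680 median UMIs. At 500 UMIs per cell the contrast was 63.4% against 1.55% in the control. Dendritic and Langerhans cell-like clusters lay in the middle, from 384 to 539 CPM in the control, and each had a ratio between 0.814 and 0.888.

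Crem was called lower in both vessel wall clusters. Mural cell-like cells had 557 and 350.2 CPM (ratio 0.629, 0.517 to 0.765) and endothelial cell-like cells 178 and 114 CPM (0.644, 0.533 to 0.777). The single higher call was in the Prg2 and Ccr3 cluster, where 7 control and 24 RHS counts gave a ratio of 2.49 (1.04 to 6.85). Those counts lay in 7 of 66 and 19 of 97 cells, and without the RHS cell that held 3 of them the ratio was 2.21 (0.904 to 6.15). At resolution 0.5 of the clustering it was 0.365. Monocyte-like cells were above 1 without being called, with 165 and 207 CPM (1.26, 1.04 to 1.52).

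Rgs1 and Rgs2, which shorten signals through Gi and Gq proteins, had their highest control levels in basophil-like cells. Rgs1 reached 7908 CPM (7704 to 8115) in control and 7377 (7161 to 7598) in RHS basophil-like cells, and 97.3% and 97.9% of those cells had a UMI at 1612.5 and 1575 median UMIs. Well below came the Prg2 and Ccr3 cluster (2183 and 2834 CPM), Langerhans cell-like cells (2014 and 2060) and mast cell-like cells (1544 and 1629). In the control the Prg2 and Ccr3 cluster (102 counts) had an interval of 1780.2 to 2650.4 CPM, which includes the Langerhans cell-like level. In keratinocyte-like clusters Rgs1 stayed at or under 16.5 CPM, and 7.36% of control Elovl6 keratinocyte-like cells had a UMI at a median depth of 10245.

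Rgs2 followed a similar order, with 2092 and 1955 CPM in basophil-like cells, 1626 and 2042 in the Cd4 and Il5 cluster, 1506 and 1412 in mast cell-like cells and 1275 and 1092 in Langerhans cell-like cells. Basophil-like cells were first in the control, while in the RHS library their interval overlapped that of the Cd4 and Il5 cluster. That cluster holds Il5-expressing lymphoid cells, and its Rgs2 ratio was 1.26 (1.21 to 1.31) from 4552 and 4601 counts. Cd8a T cell-like cells had 1.20 (1.11 to 1.30). Over the 24 clusters the log2 levels of Rgs1 and Rgs2 correlated with a Pearson r of 0.82, and 0.80 without basophil-like cells. The points share libraries and depth, so the correlation is a description.

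Between the libraries, Rgs1 was called lower in 3 and higher in 1 of 22 measured clusters, and Rgs2 lower in 5 and higher in 2 of 24. Of all gene and cluster pairs, 5.39% were called lower and 3.64% higher. Calls in both directions included tissue cells. Rgs2 was 64.9 and 22.8 CPM in Elovl6 keratinocyte-like cells (0.351, 0.252 to 0.482), 289 and 183 CPM in Krt16 keratinocyte-like cells (0.633, from 529 and 56 cells), and was lower among mural cell-like cells, with 221 and 92.6 CPM (0.419, 0.293 to 0.595). It was also lower in monocyte-like cells, at 138 and 87.5 CPM (0.634, 0.497 to 0.807). Rgs1 was lower in mural cell-like (104 and 35.4 CPM, 0.340) and endothelial cell-like cells (25.5 and 12.1 CPM, 0.475). Both were lower in the Cfd and Igha cluster, Rgs1 at 437 and 165 CPM (0.378) and Rgs2 at 455 and 248 CPM (0.545), but there the direction turned under other filters or resolutions. Mural cell-like cells thus had lower Crem, Rgs1 and Rgs2 together, at median depths of 2879.5 and 2555 UMIs. The leukocyte gene Ptprc moved with them in these cells, from 23.4 to 8.42 CPM, and its part in the 3 lower values was not tested.

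The higher calls of Rgs genes rested on few molecules. Rgs2 in the Prg2 and Ccr3 cluster had 49 and 103 counts (1.53, 1.08 to 2.19), but 35 of the 103 were in 1 cell, and without it the ratio was 1.02 (0.696 to 1.5). At resolution 0.5 of the clustering it was 0.778. Rgs2 in melanocyte-like cells had 17 and 9 counts (3.16, 1.24 to 7.51), and 1.90 (0.547 to 5.36) without the RHS cell that held 4. Rgs1 in fibroblast-like cells went from 1 to 23 counts, in 1 and 16 cells, with a ratio of 17.5 (2.85 to 722). In those same fibroblast-like cells the Ptprc level was 1.5 CPM among control and 30.9 CPM among RHS cells, and Pde3b had 4 and 17 counts (3.24, 1.06 to 13.2). Without the RHS cell with most counts, Rgs1 was at 12.3 (1.91 to 515) and Pde3b, no longer called, at 2.69 (0.845 to 11.2). At resolution 0.5 the Pde3b ratio turned to 0.687. The part of leukocyte transcripts in the fibroblast-like values was not tested.

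**Figure D3:**
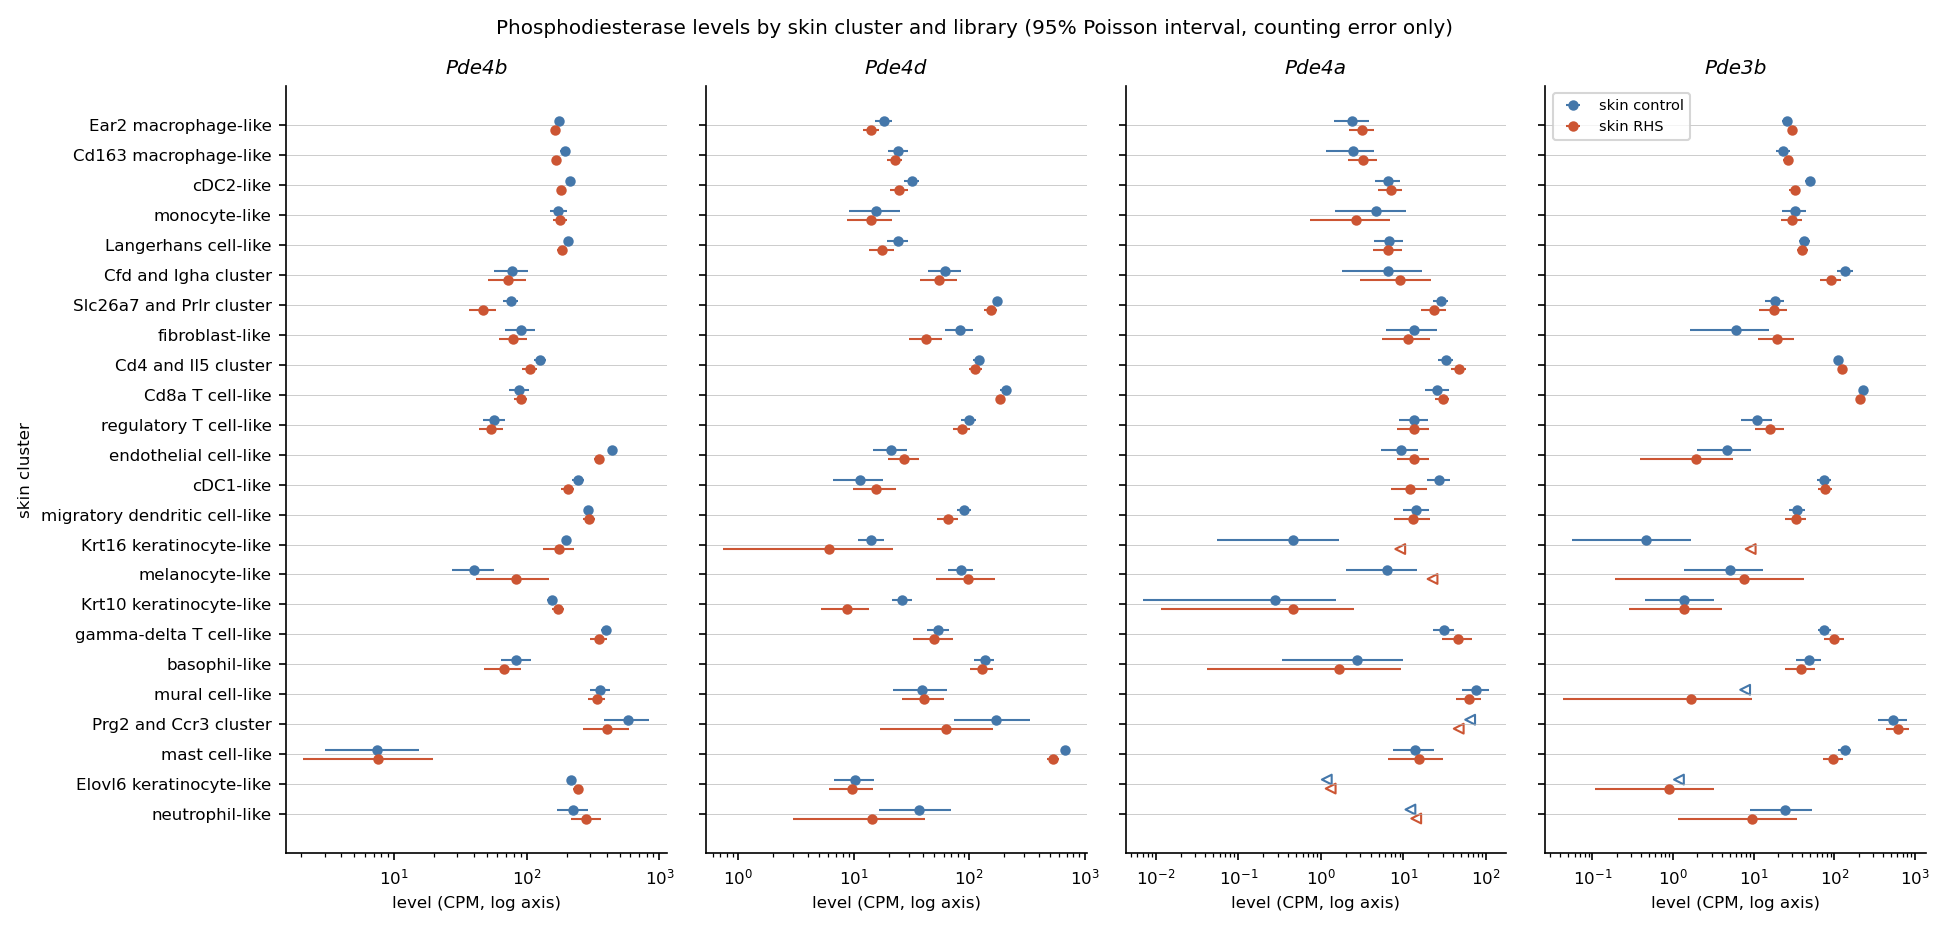
Levels in CPM (horizontal log axes) of Pde4b, Pde4d, Pde4a and Pde3b in each skin cluster (vertical axis) of the control (blue) and RHS (orange) libraries, with 95% Poisson intervals; open triangles mark 0 counts, drawn at the level of 3 counts. Pde4d is highest and Pde4b lowest in mast cell-like cells, and Pde3b is near 0 in keratinocyte-like, endothelial cell-like and mural cell-like cells.

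The 4 phosphodiesterases differed in the clusters where they were highest. Pde4b was found in nearly every cluster: its control level was 578 CPM in the Prg2 and Ccr3 cluster (27 counts), 439.6 in endothelial cell-like, 392 in gamma-delta T cell-like, 357 in mural cell-like and 290.2 in migratory dendritic cell-like cells. In the RHS library the same 5 clusters had 405, 347, 349, 337 and 295 CPM, and all 5 but the migratory dendritic cell-like cells (ratio 1.02) had ratios under 1. The exception to its breadth was mast cell-like cells, with 7 and 4 counts, or 7.46 and 7.61 CPM.

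Mast cell-like cells had the highest Pde4d level. It was at 679.7 CPM (628 to 735) among control and 529 (469 to 595) among RHS cells there, with a ratio of 0.778 (0.673 to 0.897), and 78.1% and 74.0% of the cells had a UMI at 4156 and 3773 median UMIs. Next came Cd8a T cell-like cells, with 207 and 186 CPM, and the Slc26a7 and Prlr cluster, with 175 and 154 CPM. In Elovl6 keratinocyte-like cells Pde4d was at 10.2 and 9.64 CPM, with UMIs in 9.69% and 8.66% of cells. Pde4b was high where Pde4d was low in macrophage-like, monocyte-like, conventional dendritic and keratinocyte-like clusters. Over the 24 clusters the log2 levels of both genes correlated with a Pearson r of -0.66, and -0.47 without mast cell-like cells. These points also share libraries and depth.

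**Figure D4:**
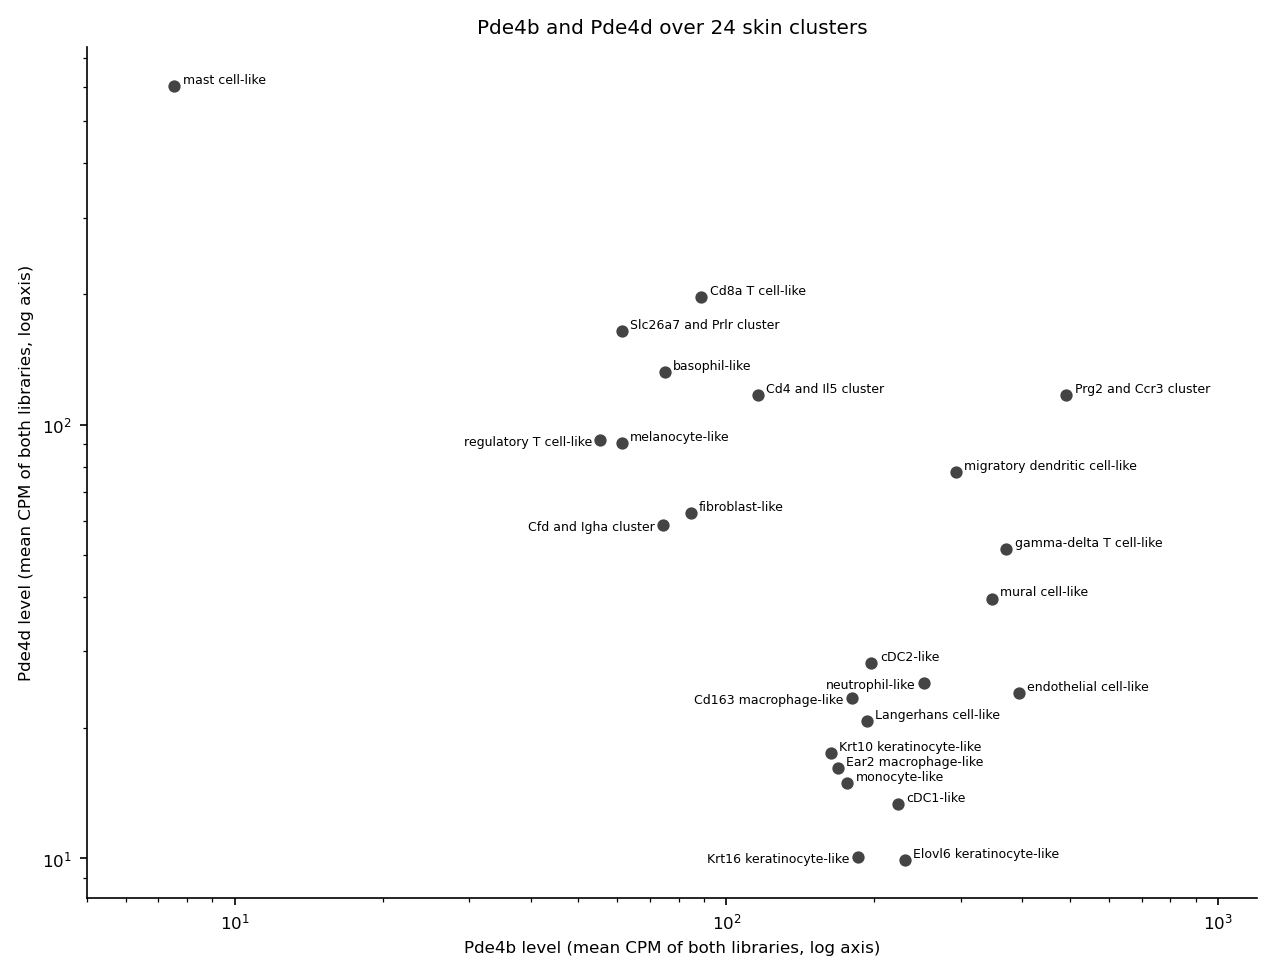
Pde4b (horizontal) against Pde4d (vertical) in each of the 24 skin clusters, as the mean CPM of both libraries on log axes. Mast cell-like cells stand alone at the top left, with 7.53 CPM of Pde4b and 604 CPM of Pde4d, and keratinocyte-like cells lie at the lower right.

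Pde3b, the cAMP phosphodiesterase best known from insulin action in fat, was highest in the Prg2 and Ccr3 cluster (535 and 607 CPM, from 25 and 39 counts) and in Cd8a T cell-like cells (225 and 206 CPM). It was rare in keratinocyte-like, melanocyte-like, mural and endothelial cell-like cells, with 5 and 3 counts in Krt10 keratinocyte-like cells and 8 and 3 counts in endothelial cell-like cells. In the Slc26a7 and Prlr cluster it had 58 and 27 counts, or 18.1 and 17.6 CPM. It was called lower in cDC2-like cells, at 49.3 and 32.3 CPM (0.655, 0.538 to 0.796), and in the Cfd and Igha cluster, at 136 and 90.0 CPM (0.662). Both directions turned under another setting, to 1.13 in cDC2-like cells with the libraries clustered separately and to 1.20 in the Cfd and Igha cluster with at least 500 genes per cell. Pde4a was the least detected of the 8, with 542 and 540 counts in all. Mural cell-like cells had the most of it, at 75.5 and 62.3 CPM, and it was at 0 counts in the neutrophil-like, Elovl6 keratinocyte-like and Prg2 and Ccr3 clusters. Its one call was lower, in cDC1-like cells, from 41 to 18 counts (0.444, 0.240 to 0.790).

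Pde4 isoforms were called lower in 3 further clusters. Krt10 keratinocyte-like cells had 26.3 and 8.67 CPM of Pde4d (0.330, 0.190 to 0.544), and fibroblast-like cells had 82.6 and 42.4 CPM of it (0.513, 0.329 to 0.792). Pde4b was at 75.9 and 46.9 CPM in the Slc26a7 and Prlr cluster (0.618, 0.468 to 0.807), whose median depth was 1490 UMIs for control and 1024.5 for RHS cells. No Pde4 gene was called higher in any cluster. Lower calls covered 1 of 14 measured clusters for Pde4a, 1 of 23 for Pde4b and 2 of 22 for Pde4d. Over all gene and cluster pairs 5.39% were called lower and 3.64% higher. These few calls lie near that background and are no result about the Pde4 genes.

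The other genes of the cAMP pathway were counted list by list against the 5.39% of all genes called lower and the 1.96% called higher by the combined ratio. With lists this short, 0 to 2 calls lie near that background and are no result about a list. Of 16 measured Gs-coupled receptors 1 was called lower, Adcyap1r1 (35 and 22 counts), and none higher. Ptger2 and Gpr65, receptors for prostaglandin E2 and for acid, had the highest ratios among the well-counted ones, at 1.19 and 1.08, and Adora2a and Ptgir, for adenosine and prostacyclin, the lowest, at 0.774 and 0.822. None of 13 G protein and adenylyl cyclase genes was called. Gnal and Gnai3 stood at 1.07 and 1.05, Gnai2 at 0.831 (under 1 in 22 of 24 clusters) and Adcy3 at 0.913. None of 13 effector genes was called either, with the kinase subunit gene Prkacb and the inhibitor gene Pkib at 1.07 and 1.05, and Rapgef4 and Prkar1b at 0.732 and 0.816.

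The CREB co-activators moved apart from each other within the 1.5-fold limit. Crtc2 had a combined ratio of 1.26 (1.21 to 1.32), over 1 in 22 of 23 clusters, and its relative Crtc3 had 0.776 (0.734 to 0.820), under 1 in 20 of 22. The salt-inducible kinases, which hold these co-activators in the cytoplasm, were at 1.18 for Sik1 and 0.883 for Sik2. None of the 10 genes of that list was called. Of 16 CREB target genes 2 were called lower, Fosb and Ppargc1a (144 and 19 counts), and none higher. Their median log2 ratio was 0.01. On that list 9 of the 16 had a ratio over 1. Fos and Sik1 had the highest ratios among its genes with at least 200 counts, 1.26 and 1.18. Areg, which encodes the growth factor amphiregulin, had 0.817.

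Among 14 other phosphodiesterases Pde8b was called higher, from 18 and 48 counts. Pde3a and Pde7a were at 1.17 and 1.08, and Pde1c and Pde10a at 0.797 and 0.815. Among 16 other RGS genes Rgs6 (66 and 37 counts) and Rgs16 (0.639, 0.530 to 0.770) were called lower, Rgs12 was at 0.674, and Rgs4 and Rgs18 had the highest ratios, 1.37 and 1.17. The median log2 ratios of these lists, -0.08 and -0.11, lay near that of the 8 genes, -0.08.

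Genes whose levels rose and fell most alike with each of the 8 over the 24 clusters were picked from 9517 candidates by Pearson r of log2(CPM + 10). Crem was most like Parp4, Zc3hav1 and Akna (r from 0.85 to 0.86), and Rgs1 most like Dock10, Cd69 and Galnt6 (0.87 to 0.88). Cd69, an early activation marker of lymphocytes, also headed the list of Rgs2 (0.86), followed by Ptk2b and Rgs1. Pde3b went with Rptor, Arhgap45 and Dennd4a (0.85 to 0.88), Pde4d with Dnajc1, Kidins220 and Maml2 (0.79 to 0.87), and Pde4a with Cfap36, Kpna1 and Itpr1 (0.83 to 0.88). Pde4b had the loosest likeness, to Taf13, Spop and Atp2b1 (0.63 to 0.67). Ppp1r15a was most like Sertad1, Nfat5 and Ndel1 (0.85 to 0.87).

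In the ganglia library 4507 nuclei with a median of 1542 UMIs formed 21 clusters. It had no partner group, and counts from nuclei may include introns, so levels are not compared with those in skin. A pair of clusters carried the noradrenergic genes Th and Dbh at the highest levels. The noradrenergic neuron-like cluster, led by Kcnip4 among others (131 nuclei, 8574 median UMIs), had 184 CPM of Th and 310.4 of Dbh. The other cluster had 158 and 389 CPM (183 nuclei, 3060 median UMIs, 2.28% median mitochondrial UMIs). The markers matched it to noradrenergic neurons as well, but it was left unnamed because Clps and the haemoglobin genes Hba-a1 and Hbb-bs led it. Low Th or Dbh counts were found in the other clusters as well, up to 211 CPM of Dbh in Schwann cell-like nuclei.

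Pde4b was highest in 2 clusters. A cluster of 26 nuclei led by the myelin genes Mobp and Mog had 5787 CPM, from 170 counts, and the Kcnip4 noradrenergic neuron-like cluster had 4063 CPM, from 6572 counts. The Clps and haemoglobin gene cluster had 246 CPM (165 counts), inside the range of the rest. In the other 18 clusters the level of Pde4b ran from 24.6 CPM in Nnat white-type adipocyte-like to 860 CPM in skeletal muscle-like nuclei. Pde4d was more even, between 317 CPM in T or NK cell-like and 2787 CPM in skeletal muscle-like nuclei, with 2142 CPM in the Kcnip4 noradrenergic and 945 CPM in the Clps and haemoglobin gene cluster. Pde4b and Pde4d were thus the members with most counts in Kcnip4 noradrenergic nuclei.

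**Figure D5:**
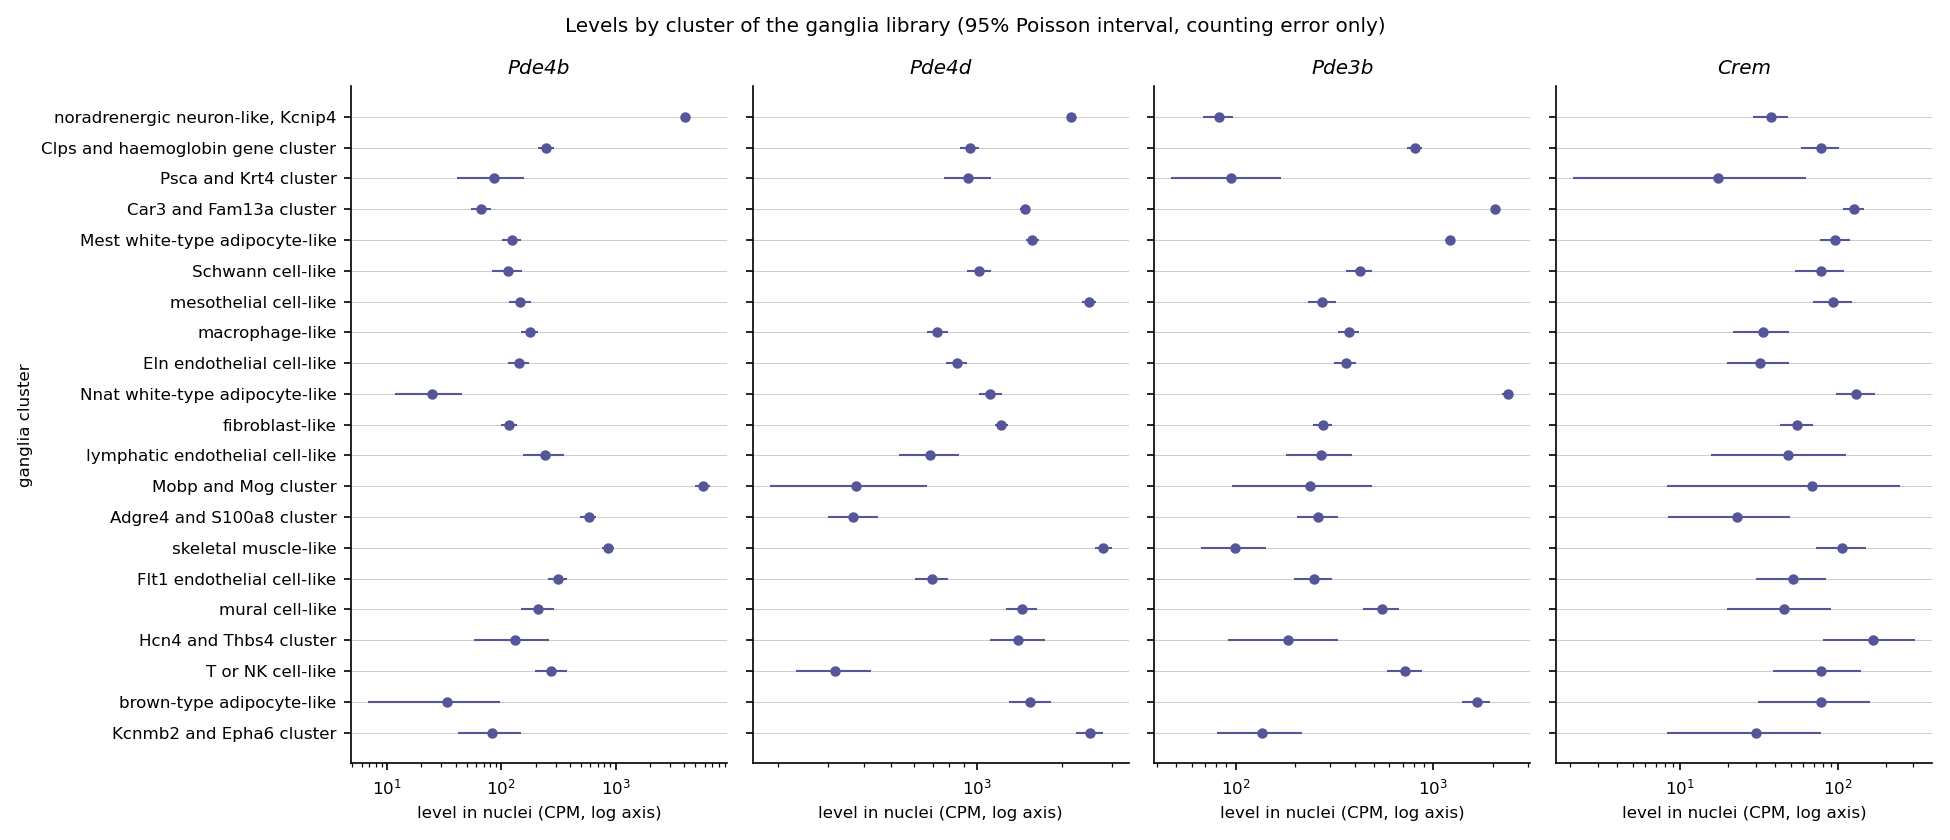
Levels in CPM (horizontal log axes) of Pde4b, Pde4d, Pde3b and Crem in the 21 clusters of ganglia nuclei (vertical axis), with 95% Poisson intervals. Pde4b stands out in the Kcnip4 noradrenergic cluster (4063 CPM) and in the Mobp and Mog cluster (5787 CPM), and Pde3b in the adipocyte-like clusters and the Car3 and Fam13a cluster.

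Pde3b was highest in adipocyte-like nuclei and in an unnamed cluster led by Car3 and Fam13a, whose best match was also the white-type adipocyte list. Its level was 2381 CPM in Nnat white-type, 1652 in brown-type and 1218 in Mest white-type adipocyte-like nuclei, and 2059 in the Car3 and Fam13a cluster, beside 82.2 CPM in the Kcnip4 noradrenergic cluster. The Clps and haemoglobin gene cluster had 805 CPM. Rgs1 was at 0 counts in 11 clusters and highest in macrophage-like nuclei, at 57.2 CPM from 43 counts. Rgs2 was highest in the Car3 and Fam13a cluster, at 128 CPM, and had 14 counts in the Kcnip4 noradrenergic cluster. Ppp1r15a did not exceed 22.2 CPM, Crem ran from 17.2 to 167 CPM, and Pde4a from 0 to 66.5 CPM.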

How the data were processed

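The deposited values are raw UMI counts, whole numbers for each gene in each barcode that the authors had not normalized, per the file headers; filters applied before deposit are not stated, and every barcode held at least 500 UMIs. GRCm39 is the build named in the submitters' processing notes, which also list Seurat 5.1.0, R 3.6.0 and Cell Ranger. Cellranger 7.1.0 wrote the ganglia counts, per the file headers, while for the skin counts the program is not given in the sources used. The control, RHS and ganglia libraries held 12979, 13339 and 4706 barcodes with 55200785, 52762575 and 11101393 UMIs.

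Cells with fewer than 200 genes (54, 92 and 1) or over 20% mitochondrial UMIs in skin or 5% in ganglia (202, 179 and 196) were removed. Scrublet, run in scanpy 1.11.5, marked 1.15%, 0.880% and 0.0444% as doublets, which were removed; the last share is too small for the caller to have worked, and undetected doublets remain. Both skin libraries entered 1 clustering, not integrated (2000 variable genes without the 8 studied, 30 components, 15 neighbours, Leiden resolution 1.0). Clusters were named from marker lists by a rule that was set with the data in view. Some of its names were set aside by hand: eosinophil for the Prg2 and Ccr3 cluster in skin, and 3 names in the ganglia. These were noradrenergic neuron for the Clps and haemoglobin gene cluster, Schwann cell and satellite glia for the Mobp and Mog cluster, and neutrophil for the Adgre4 and S100a8 cluster. Of the skin cells, 25.5% (control) and 19.7% (RHS) lay in clusters that the rule itself left unnamed. These shares leave out the Prg2 and Ccr3 cluster (66 and 97 cells). Unnamed clusters were compared by their leading genes.

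Counts were summed per cluster and library and given as CPM with exact Poisson intervals. Ratios have exact conditional binomial intervals, combined ratios are Mantel-Haenszel ratios over the 24 clusters with Greenland-Robins intervals, and shares have Clopper-Pearson intervals. The ratios, the combined ratios and their intervals were checked on simulated counts, while the Poisson and Clopper-Pearson intervals were not. No test between groups and no p-value is given, since each group is 1 library. The genes, lists and comparisons were chosen with earlier results of these data known. Named were the 8 genes, the 2 highest and 2 lowest of each list with at least 200 counts, the 3 most alike genes with at least 500 counts, and, after their values were seen, the other called genes, Ppp1r15b, Atf4 and Ptprc. Overlapping or antisense genes cannot be told apart without knowing the counter's settings. Alternatives changed scaling, filters, doublets, resolution, clustering genes, joint clustering and cell weights, one at a time; those on cluster size and non-blood clusters were chosen after seeing the data. Other tools were numpy 2.4.6, scipy 1.17.1, igraph 0.11.9 and Python 3.11.15.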

Additional observations from a re-analysis of the deposited data

How the results depend on the processing

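The combined Ppp1r15a ratio, 0.641, was 0.720 with each cell thinned to 500 UMIs, 0.670 as a mean of per-cell CPM and 0.622 without the keratinocyte, melanocyte, fibroblast, mural and endothelial clusters, an alternative chosen after seeing the data; it stayed between 0.622 and 0.720 in all 13 alternatives. The 31 lower gene and cluster pairs became 13 when thinned and 19 without those clusters. The 5 higher pairs became 1 with at least 100 counts, and 2 at resolution 0.5, when thinned, with at least 100 cells per cluster (also chosen afterwards) or without those clusters. For these alternatives the share of pairs called over all genes was not computed, so the counts have no background beside them. No pair count could be given for the mean of per-cell CPM, which has no interval.

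Of the 36 called pairs, 10 of 404 values turned direction. In the Cfd and Igha cluster, Rgs2 was 1.21 at 10% mitochondrial UMIs, 1.32 with at least 500 genes per cell and 1.04 at resolution 2.0; Rgs1 was 3.06 with 500 genes and 1.05 at resolution 2.0, and Pde3b 1.20 with 500 genes. Pde3b in cDC2-like cells was 1.13 with the libraries clustered separately. At resolution 0.5 Pde3b was 0.687 in fibroblast-like cells, and in the Prg2 and Ccr3 cluster Crem was 0.365 and Rgs2 0.778. The causes were not tested. The Prg2 and Ccr3 cluster held 46718 and 64229 UMIs, so its intervals are wide. No paired analysis was possible because each group holds 1 library.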
